A study of Rattus norvegicus with 19 samples.

Results

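Chemokines and their receptors were compared between 13 mammary carcinomas and 6 normal mammary glands of female rats. The gene group was formed by name: every gene matched to an array probe through its RefSeq accession whose symbol starts with Ccl, Cxcl, Ccr or Cxcr followed by a number, together with Cx3cl1, Cx3cr1, Xcl1 and Xcr1. It held 51 genes measured by 55 probes, of 15168 named genes and 18005 named probes on the array. Of the 51, 33 were ligands and 18 were receptors. Ccr8 and Cxcl3 had no probe matched here and were not analysed here.

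Both groups were of the same strain background, an F1 hybrid of Sprague-Dawley and Copenhagen. The carcinomas are described as radiation-induced, and the protocol covers rats left untreated and rats given 4 Gy of whole-body gamma rays when 7 weeks old. Which normal glands came from irradiated rats, and the age at which tissue was taken, are not given in the sources used here, so tumour formation and irradiation cannot be told apart. Each sample was 1 tissue and 1 single-colour array. Nothing in the labels says that every sample came from its own rat, so p-values measure the spread between these samples. RNA came from whole tissue, in which fewer cells of a type and less RNA per cell cannot be told apart.

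Chemokines are small secreted proteins that guide migrating cells along a gradient, and most bind G protein-coupled receptors on leukocytes. Homeostatic chemokines are made steadily by stromal and epithelial cells and hold lymphocytes in their tissue places, whereas inflammatory chemokines are switched on by cytokines and microbial products. Atypical receptors bind chemokines without the usual G protein signal and remove or relocate them. In the mammary gland, macrophages and eosinophils drawn in by such signals take part in duct growth, and tumours are infiltrated by leukocytes that answer to the same ligands.

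Levels are given as the log2 intensity of a probe minus the 75th percentile of log2 intensity on its array, so 0 means as bright as that percentile. Levels are compared between samples of 1 gene only, never between genes. The carcinoma arrays were brighter, with a 75th percentile of intensity of 484.9 to 1428 against 295.5 to 673 on normal gland arrays, and 62.3 to 84.2% of spots on carcinoma arrays were well above background, against 65.5 to 77.2% on normal gland arrays. The 1514 probes that were not well above background on any array had a median difference of -0.97 between carcinoma and normal gland on the scaled log2 axis. A fall of about that size in a dim gene is therefore also seen where no RNA was detected. Cell type markers differed too, beside 13.2% of all genes tested that were lower in carcinomas and 9.73% that were higher. Lower were 9 of 9 adipocyte markers, 8 of 11 endothelial, 11 of 17 T and NK cell, 6 of 8 B and plasma cell and 9 of 14 macrophage markers. In the other lists, 3 of 5 dendritic cell, 2 of 5 lymph node stroma, 2 of 7 milk, 3 of 9 neutrophil and 3 of 11 fibroblast markers were lower. Of 10 mast cell markers, 0 were lower. Of 12 epithelial markers, 2 (Gata3 and Cdh1) were higher and none was lower. The part of these markers and of array brightness in the results was not tested, apart from the values given beside them.

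In carcinomas, 21 of the 45 chemokine and receptor genes that passed the filter on dim probes were lower than in normal glands, and none was higher. A gene passed if its probe was well above background on at least 6 arrays, and a call means an adjusted p under 0.05 in limma, adjusted by Benjamini-Hochberg across the 12789 genes of the whole fit. The share lower was 46.7%, against a background of 13.2% of all genes tested. Background shares were 9.73% of all genes higher and 23.0% changed in either direction. At an unadjusted p under 0.05, 28 of the 45 were lower and 0 higher. The change, carcinoma minus normal gland on the log2 scale, was negative in 39 of 45 genes, with a median of -1.42, against 0.01 over all genes tested. Ligands made up 15 of the 21 genes, of 31 ligands tested, and receptors made up 6, of 14 tested. All carcinomas lay below all normal glands in 5 genes (11.1%), Ccl21, Ccl19, Ccl6, Cxcl12 and Ccr1, which was true of 1.93% of all genes tested. For Cxcl12 this held on the probe with the higher mean over all arrays, called its brighter probe here, and not on the other.

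**Figure D1:**
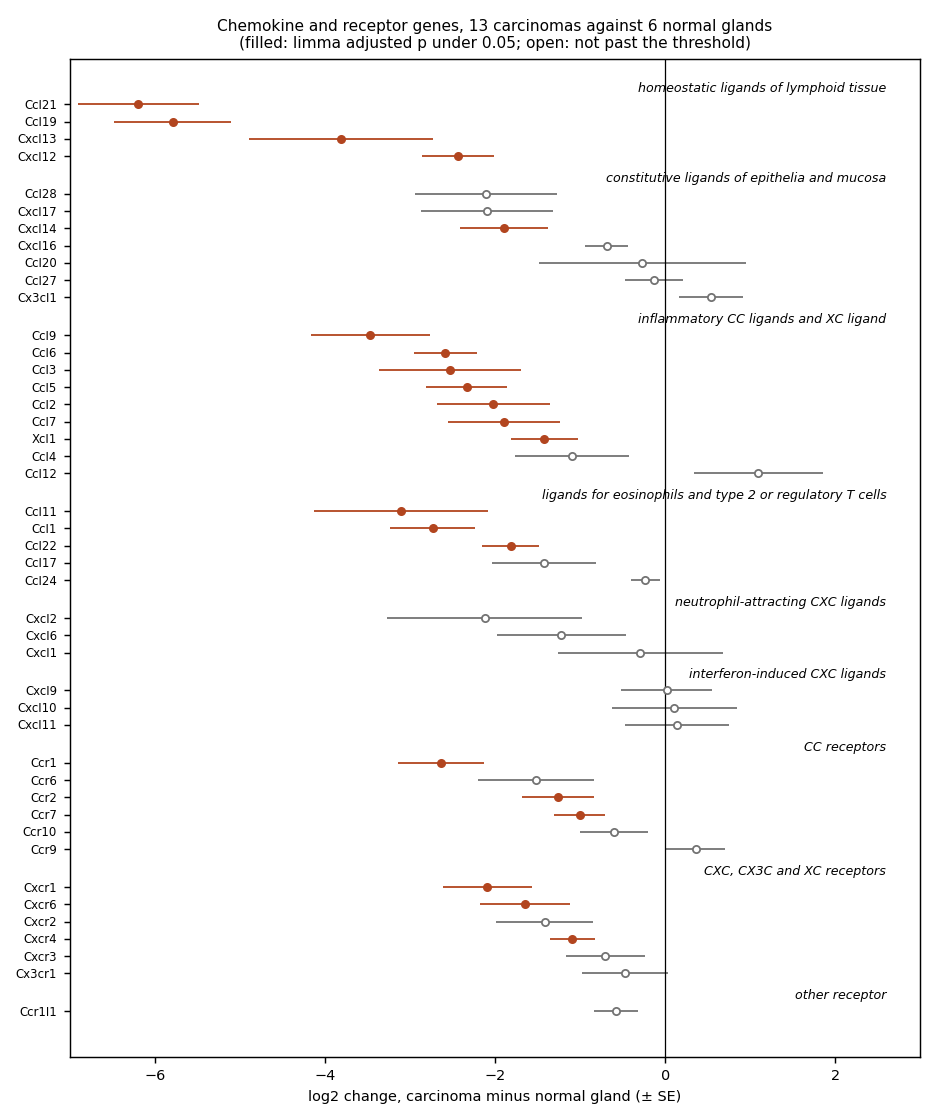
Log2 change between 13 carcinomas and 6 normal glands (carcinoma minus normal gland, ± SE) for the tested genes reported here, grouped by role; filled points passed the adjusted threshold of 0.05 and open points did not. The 4 homeostatic ligands of lymphoid tissue all lay left of 0 and all 4 were called, while the 3 interferon-induced ligands sat near 0.

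The count of lower genes varied with the arrays and terms in the fit. It ranged from 14 to 26 when each array was left out in turn. Within slides, 8 genes were called among the arrays of slide 1, 10 on slide 2 and 0 on slide 3, which held a single normal gland and where 6 genes had an unadjusted p under 0.05. The change was negative in 40, 43 and 32 of the 45 genes on slides 1, 2 and 3. With array brightness added as a covariate, 3 genes stayed below the threshold, Ccl19, Cxcl12 (on its brighter probe) and Cxcl14, and the change remained negative in 39 genes. That fit called 174 of all genes lower and 11 higher, so it removed most calls in the whole array as well. Of the genes well above background on all 19 arrays, 12 of 24 chemokine genes were lower, against 14.8% of all such genes.

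The homeostatic ligands of lymphoid tissue fell furthest. All 4 tested, Ccl21, Ccl19, Cxcl13 and Cxcl12, were lower, beside 13.2% of all genes tested, with a median change of -4.80. Ccl21, which binds Ccr7 and leads T cells and dendritic cells into lymph nodes, ranged from -6.29 to -0.17 in carcinomas (median -3.67) and from 0.95 to 4.59 in normal glands (median 2.65). Every carcinoma lay below every normal gland. The change was -6.19 ± 0.71 on the log2 scale (SE; limma adjusted p = 4.65e-06), a 73.1-fold lower intensity. Ccl19, the other Ccr7 ligand, ranged from -7.71 to -3.99 in carcinomas (median -5.73) and from -2.66 to 4.32 in normal glands (median -0.47). The groups did not overlap here either, and the normal glands were themselves spread widely, with gland 5 the highest. The change was -5.79 ± 0.69 (adjusted p = 7.49e-06), and without normal gland 5 it was -4.92 (adjusted p = 1.92e-06). The Ccl19 probe was well above background in 9 of 13 carcinomas, and the size of the fall varied with the processing, at -3.74 with normexp background correction (adjusted p = 3.09e-05) and from -8.51 within slide 2 to -3.74 within slide 1.

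Cxcl13, which draws B cells into follicles through Cxcr5, ranged from -6.96 to 1.67 in carcinomas (median -2.99) and from -0.25 to 2.29 in normal glands (median 0.50). Of the 13 carcinomas, 10 lay below the lowest normal gland, while carcinomas 3 and 10 reached 1.67 and 1.23, inside the range of the normal glands. The change was -3.81 ± 1.08 (adjusted p = 0.0158). Cxcl12, which keeps haematopoietic cells in bone marrow and attracts lymphocytes through Cxcr4, ranged from -1.82 to 2.21 in carcinomas (median 1.46) and from 2.93 to 4.07 in normal glands (median 3.51). On this probe no carcinoma reached the lowest normal gland, and carcinoma 7 was the lowest of all. The change was -2.44 ± 0.42 (adjusted p = 0.000507). A second Cxcl12 probe, designed to another transcript accession, changed by -0.58 ± 0.42 and did not pass the threshold in the test of single probes (adjusted p = 0.352). On that probe the groups overlapped, with normal glands from 0.85 to 2.12 and carcinoma 13 above them all at 3.05. Over the carcinomas the pair of probes correlated with r = 0.876 (n = 13). The mean of the second probe minus that of the first was 0.09 in carcinomas and -1.78 in normal glands. The call of Cxcl12 rests on 1 of its 2 probes, chosen for its higher mean over all arrays. By group mean, that probe was brighter in normal glands (3.51 against 1.73) and not in carcinomas (1.07 against 1.15).

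Markers of lymphocytes were lower in carcinomas as well. The score of the 8 B and plasma cell markers, the mean of their levels each centred on its own average over all arrays, ran from -1.51 to 1.41 in carcinomas and from 0.27 to 4.24 in normal glands. Normal gland 5 had the highest B cell score (4.24), the highest T and NK cell score (2.39) and the highest Ccl19 and Ccl21. Carcinoma 10, with the second highest Cxcl13 among carcinomas, had the highest B cell score among carcinomas (1.41). Other carcinomas did not follow that order: carcinoma 1, with the most Ccl19 and Ccl21 of the carcinomas, had a B cell score of -1.36, and carcinoma 3, with the most Cxcl13, had -0.44. The list of lymph node stroma held 5 tested genes, of which Glycam1 and Ltb were lower. Glycam1 is also a milk protein gene in rodents, and Ltb encodes lymphotoxin beta, an inducer of these ligands. The part of lymphoid tissue in the glands was not tested.

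**Figure D2:**
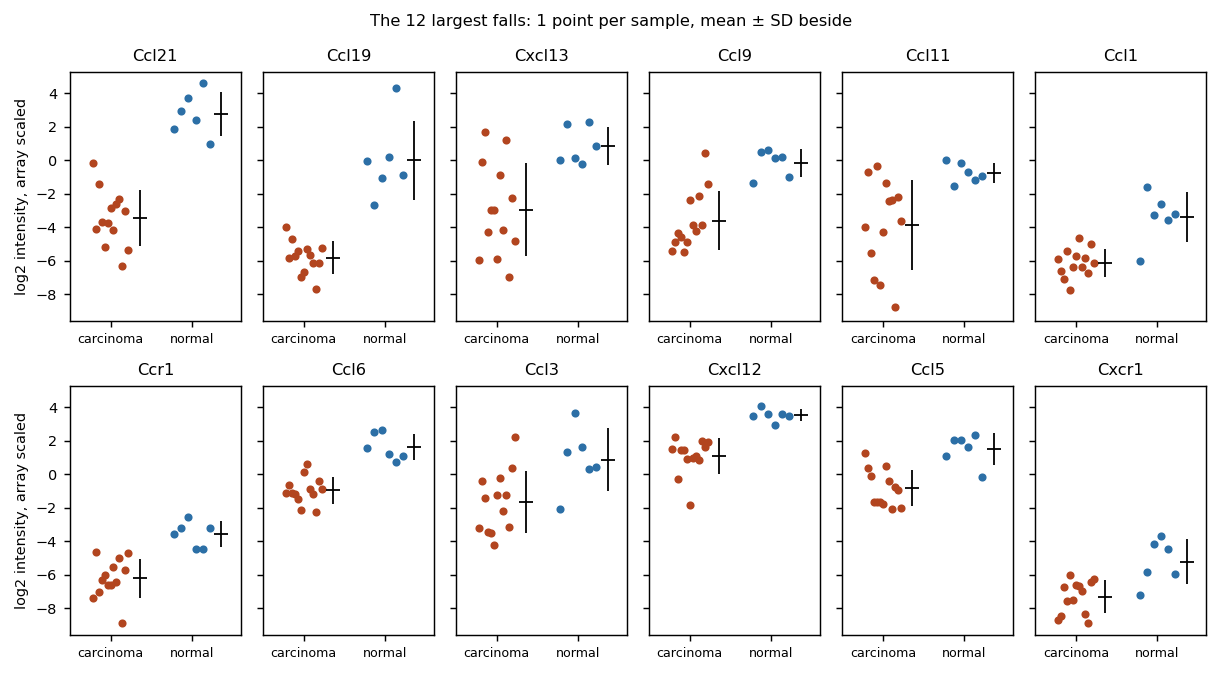
Scaled log2 intensity in each of 13 carcinomas (left) and 6 normal glands (right) for the 12 genes with the largest falls; each point is 1 sample and the bar beside it gives mean ± SD. Ccl21, Ccl19, Ccr1, Ccl6 and Cxcl12 (on its brighter probe) show no overlap, and the others show carcinomas inside the range of the normal glands.

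Among the inflammatory CC ligands and the XC ligand, which attract monocytes, T cells and NK cells, 7 of 9 were lower. The share over all genes tested was 13.2%, and the median change of this list was -2.02. Ccl9, known in mice as a ligand of Ccr1, ranged from -5.46 to 0.45 in carcinomas (median -4.22) and from -1.37 to 0.61 in normal glands (median 0.17). All but 1 carcinoma lay below the lowest normal gland, and carcinoma 12 stood at the level of the glands with 0.45. Its change was -3.46 ± 0.70 (adjusted p = 0.00181). Ccl6, a related rodent ligand made by macrophages, ranged from -2.26 to 0.62 in carcinomas (median -1.13) and from 0.70 to 2.64 in normal glands (median 1.38). The groups came close, at 0.62 in carcinoma 8 and 0.70 in normal gland 5, without overlap. The change was -2.58 ± 0.37 (adjusted p = 6.69e-05), and the probe was well above background on all arrays.

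Ccl3, a ligand of Ccr1, ranged from -4.24 to 2.21 in carcinomas (median -1.44) and from -2.09 to 3.63 in normal glands (median 0.85). The groups overlapped over most of their range, with carcinoma 13 high and normal gland 1 low. The change was -2.53 ± 0.84 (adjusted p = 0.0348). Ccl5, which is made by activated T and NK cells, ranged from -2.07 to 1.24 in carcinomas (median -0.92) and from -0.19 to 2.35 in normal glands (median 1.83). Carcinoma 1 was the highest carcinoma and normal gland 6 the lowest gland. The change was -2.33 ± 0.48 (adjusted p = 0.00199).

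Ccl2 and Ccl7, which recruit monocytes through Ccr2, changed by -2.02 ± 0.66 (adjusted p = 0.0326) and -1.89 ± 0.66 (adjusted p = 0.0435). Xcl1, the ligand of Xcr1 on dendritic cells, changed by -1.42 ± 0.39 (adjusted p = 0.0134), and its second probe was lower as well (-1.65 ± 0.58, adjusted p = 0.0454 among single probes). The call of Xcl1 was lost within each slide, with a change of 0.11 within slide 3, and with array brightness as a covariate (-0.33, adjusted p = 0.822). Ccl4, which attracts monocytes and lymphocytes, had a change of -1.10 ± 0.67 that did not pass the threshold (adjusted p = 0.254). Ccl12, a Ccr2 ligand of rodents, was the gene with the largest positive change of the group, 1.09 ± 0.76, and did not pass either (adjusted p = 0.322). Calls of Ccl2, Ccl3 and Ccl7 rested on single arrays: without one of them, the adjusted p reached 0.109, 0.124 and 0.105. Ccl2 lost the call without normal gland 2, 3, 4 or 5, Ccl3 without normal gland 2, 3 or 4 or carcinoma 4 or 5, and Ccl7 without any of 13 of the 19 arrays. The macrophage score ran from -1.90 to 0.70 in carcinomas and from 0.63 to 1.44 in normal glands, and Cd163 (-3.20 ± 0.50, adjusted p = 0.000167) and Mrc1 (-1.82 ± 0.47, adjusted p = 0.00898) had its largest falls.

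Of the ligands for eosinophils and for type 2 or regulatory T cells, 3 of 5 tested were lower, beside 13.2% of all genes tested. The median change of the 5 was -1.82. Ccl11, eotaxin, which draws eosinophils through Ccr3, ranged from -8.75 to -0.36 in carcinomas (median -3.63) and from -1.55 to -0.004 in normal glands (median -0.81). Of the carcinomas, 10 lay below the lowest gland, while carcinomas 2, 5 and 8 had values like those of the glands. The change was -3.10 ± 1.02 (adjusted p = 0.0337), and the call was lost without any 1 of normal glands 1 to 4 (adjusted p up to 0.0798). The probe was well above background in 10 of 13 carcinomas, and with normexp background correction the change was -1.89. Ccl1, a ligand of Ccr8, ranged from -7.71 to -4.65 in carcinomas (median -6.14) and from -6.03 to -1.60 in normal glands (median -3.24). Normal gland 1 lay among the carcinomas, and the other glands were above them. The change was -2.73 ± 0.50 (adjusted p = 0.000852), in a dim probe that was well above background in 5 carcinomas and 5 normal glands, and was -1.56 with normexp.

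Ccl22, which attracts regulatory T cells through Ccr4, changed by -1.82 ± 0.34 (adjusted p = 0.00095), with 12 of 13 carcinomas below the lowest gland. Its partner ligand Ccl17 had a change of -1.42 ± 0.61 (adjusted p = 0.0982), with normal glands that themselves ran from -4.35 to 0.33. Without normal gland 6 the change of Ccl17 was -1.92 (adjusted p = 0.0224), and without carcinoma 13 it was -1.61 (adjusted p = 0.0496). Ccl24, the second eotaxin, was among the steadiest genes of the group: it ranged from 2.29 to 3.59 in carcinomas and from 3.02 to 3.48 in normal glands, with a change of -0.23 ± 0.17 (adjusted p = 0.352). Ccl26, the third eotaxin, was well above background in 1 carcinoma and no normal gland and was not tested.

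Constitutive ligands of epithelia and mucosa gave 1 call among 7 genes tested, with a median change of -0.69. That share is near the 13.2% of all genes tested that were lower. Cxcl14, a homeostatic ligand of skin and other epithelia, was lower by -1.89 ± 0.52 (adjusted p = 0.0127). It ranged from 0.82 to 4.75 in carcinomas and from 4.22 to 5.74 in normal glands, and carcinomas 1 and 2 reached the level of the glands. Ccl28, which guides plasma cells into the lactating mammary gland, ranged from -6.98 to 0.33 in carcinomas (median -1.94) and from -0.98 to 0.50 in normal glands (median -0.27). Carcinomas 4, 11 and 12 lay within the range of the glands, and carcinomas 5, 8 and 2 were lowest. The change of -2.11 ± 0.84 did not pass (adjusted p = 0.0743), and it passed without carcinoma 4 (adjusted p = 0.0455) or carcinoma 11 (adjusted p = 0.0474), and with the series of sample codes in the labels, numbers or letters, as a block (adjusted p = 0.0468).

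Cxcl17, a ligand of mucosal epithelia, split the carcinomas, a pattern noticed after the values were seen. Carcinomas 3, 5, 6, 7, 8 and 9 ranged from -3.60 to -1.68, and the other 7 carcinomas from 0.53 to 1.24, with no value between. Normal glands ranged from 0.49 to 1.81, next to the higher carcinomas. Over all 13 carcinomas the change was -2.10 ± 0.77 (adjusted p = 0.0553), and it passed the threshold without carcinoma 1, 2, 4, 10, 11, 12 or 13 in turn, with slide as a block (-2.26, adjusted p = 0.0471) and with the series of sample codes as a block (-2.18, adjusted p = 0.038). Cxcl16, the ligand of Cxcr6, which also exists as a membrane-bound form, changed by -0.69 ± 0.25 (adjusted p = 0.0559), and it passed without carcinoma 7, 12 or 13 and with code series as a block (adjusted p = 0.0496). Cx3cl1, a membrane-tethered ligand of Cx3cr1, and Ccl27, a skin ligand of Ccr10, had changes of 0.54 ± 0.38 (adjusted p = 0.328) and -0.13 ± 0.34 (adjusted p = 0.818). Ccl25, the ligand of Ccr9, was well above background in 5 carcinomas and no normal gland and did not pass the filter.

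The neutrophil-attracting ligands bind Cxcr2 and covered a wide range among carcinomas. None of the 3 tested was called, and none had an unadjusted p under 0.05. Cxcl1 ranged from -3.62 to 5.49 in carcinomas (median -0.72) and from -0.96 to 1.22 in normal glands (median -0.51). Carcinoma 13 (5.49) and carcinoma 2 (2.78) stood above every normal gland, and 6 carcinomas lay below every normal gland. The change was -0.29 ± 0.97 (adjusted p = 0.865). Cxcl2 ranged from -5.71 to 5.13 in carcinomas (median -2.47) and from -1.70 to 3.77 in normal glands (median 0.97). Carcinoma 13 was again highest, and carcinoma 6 lowest. The change was -2.12 ± 1.15 (adjusted p = 0.194), and without carcinoma 13 it was -2.65 and passed the threshold (adjusted p = 0.0465).

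Cxcl6 had a change of -1.22 ± 0.76 (adjusted p = 0.265) in a dim probe, well above background in 6 carcinomas and 4 normal glands, with carcinoma 13 again highest at -2.59. Ccl20, the ligand of Ccr6 and of T helper 17 cells, is an epithelial gene that varied in a like way. It ranged from -8.76 to 0.81 in carcinomas (median -6.46) and from -6.63 to -3.95 in normal glands (median -5.45). Carcinomas 13 (0.81) and 2 (-0.53) stood clear of the rest, and the next was carcinoma 12 at -3.32. The probe was well above background in 5 carcinomas and 3 normal glands, so the lower values are near array background. Its change was -0.27 ± 1.22 (adjusted p = 0.903), and its second probe followed the first across carcinomas with r = 0.989 (n = 13).

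The promoters of these 4 genes are shown because all 4 had their highest value in carcinoma 13 and all hold a match to the consensus of NF-κB, the transcription factor that cytokines and microbial products switch on. Of the 12 genes with their highest value in carcinoma 13, 8 were matched to a promoter, and the other 4 of these, Cxcr2, Ccl17, Cxcl16 and Ccl24, hold no match. Each window runs from 250 bases before to 50 bases after the gene start, 5′ to 3′, from RefSeq on the rat build GRCr8, and capitals mark the match.
Cxcl1 promoter, chr14:17479272-17479571, minus strand: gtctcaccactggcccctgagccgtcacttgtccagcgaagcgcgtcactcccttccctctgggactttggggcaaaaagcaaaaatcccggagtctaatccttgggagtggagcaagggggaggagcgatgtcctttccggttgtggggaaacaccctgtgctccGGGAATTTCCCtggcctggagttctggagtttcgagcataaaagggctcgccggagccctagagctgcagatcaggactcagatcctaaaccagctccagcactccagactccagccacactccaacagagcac
Cxcl2 promoter, chr14:17467206-17467505, minus strand: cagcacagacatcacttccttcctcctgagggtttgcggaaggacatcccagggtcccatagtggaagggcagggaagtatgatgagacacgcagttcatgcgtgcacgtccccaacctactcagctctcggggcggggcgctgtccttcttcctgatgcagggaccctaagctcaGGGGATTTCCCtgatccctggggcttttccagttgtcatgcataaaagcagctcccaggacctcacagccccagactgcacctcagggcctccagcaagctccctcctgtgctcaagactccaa
Cxcl6 promoter, chr14:17596368-17596667, minus strand: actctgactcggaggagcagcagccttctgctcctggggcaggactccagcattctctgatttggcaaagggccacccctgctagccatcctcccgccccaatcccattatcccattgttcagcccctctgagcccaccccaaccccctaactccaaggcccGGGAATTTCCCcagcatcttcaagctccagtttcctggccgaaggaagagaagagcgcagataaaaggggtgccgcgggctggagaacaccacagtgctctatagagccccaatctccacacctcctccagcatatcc
Ccl20 promoter, chr9:91836909-91837208, plus strand: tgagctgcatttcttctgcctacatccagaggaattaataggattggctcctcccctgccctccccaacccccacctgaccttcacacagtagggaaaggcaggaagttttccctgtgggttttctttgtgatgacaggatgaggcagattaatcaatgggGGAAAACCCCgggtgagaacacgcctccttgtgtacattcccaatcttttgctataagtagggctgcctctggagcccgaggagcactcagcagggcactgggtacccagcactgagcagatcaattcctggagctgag
Both strands were searched, and in Cxcl1, Cxcl2 and Cxcl6 matches on the forward and reverse strands overlap in 1 run. The run spans bases -84 to -74 in Cxcl1, -74 to -64 in Cxcl2, -88 to -78 in Cxcl6 and -89 to -80 in Ccl20, counted from the gene start.

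The consensus was present in 8 of the 40 chemokine and receptor promoters matched by symbol (20.0%), against 4.18% of 33469 promoters of the same length. Among genes lower in carcinoma it was present in 1 of 16 promoters, that of Ccl9, and among tested genes that were not called in 6 of 20, namely Ccl20, Cxcl1, Cxcl2, Cxcl6, Cxcl10 and Cxcl11. The search was chosen after the values were seen and was not tested, and a match is a string of letters, not evidence of binding.

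**Figure D3:**
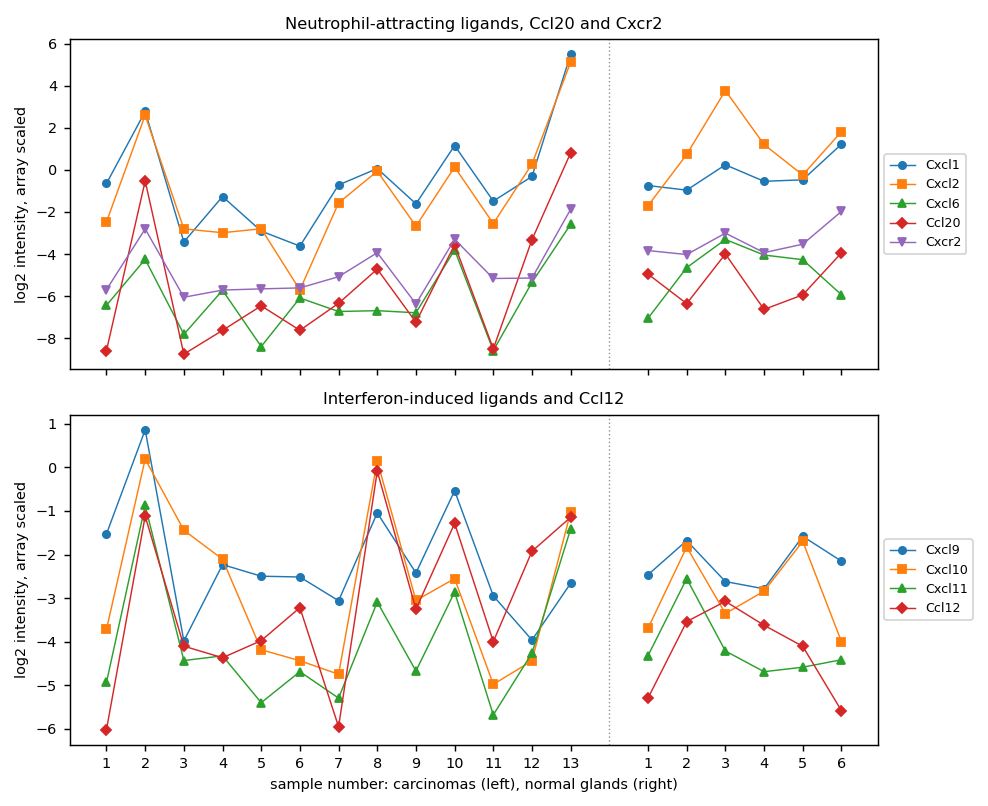
Scaled log2 intensity by sample, carcinomas 1 to 13 on the left and normal glands 1 to 6 on the right, for the neutrophil-attracting ligands with Ccl20 and Cxcr2 (top) and for the interferon-induced ligands with Ccl12 (bottom); points of 1 gene are joined, and only points of the same gene can be compared. Carcinomas 2 and 13 stand out in the top panel, where Cxcl1 reached 2.78 and 5.49, and carcinomas 2 and 8 in the bottom panel, where Cxcl10 reached 0.19 and 0.15.

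The interferon-induced ligands Cxcl9, Cxcl10 and Cxcl11, which draw effector T cells through Cxcr3, had the smallest median change of the ligand groups, 0.11. None of the 3 was called or had an unadjusted p under 0.05. The changes were 0.02 ± 0.53 for Cxcl9 (adjusted p = 0.985), 0.11 ± 0.73 for Cxcl10 (adjusted p = 0.94) and 0.13 ± 0.61 for Cxcl11 (adjusted p = 0.904), and each sign turned when single carcinomas were left out. Carcinomas ran from -4.98 to 0.19 for Cxcl10, wider than the normal glands at -4.00 to -1.70. Carcinoma 2 was highest for all 3 ligands, with 0.86 for Cxcl9, 0.19 for Cxcl10 and -0.87 for Cxcl11. Carcinoma 8 was highest for Ccl12 (-0.09) and second for Cxcl10 (0.15).

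Among CC receptors, 3 of 7 tested were lower, beside 13.2% of all genes tested, with a median change of -1.01. Ccr1, a monocyte and neutrophil receptor for Ccl3, Ccl5 and the rodent ligands Ccl6 and Ccl9, ranged from -8.90 to -4.64 in carcinomas (median -6.32) and from -4.49 to -2.53 in normal glands (median -3.40). The groups did not overlap, though only narrowly, and the probe was well above background in 6 of 13 carcinomas and all 6 glands. The change was -2.64 ± 0.50 (adjusted p = 0.00114), larger than the -0.97 of undetected probes, and -1.42 with normexp (adjusted p = 3.19e-05). Ccr2, the Ccl2 receptor of monocytes, and Ccr7, the Ccl19 and Ccl21 receptor, had calls of -1.26 ± 0.43 (adjusted p = 0.0383) and -1.01 ± 0.30 (adjusted p = 0.0208), close to that value. Both were well above background in 10 carcinomas and 5 normal glands. Ccr2 lost the call without any of 7 arrays and Ccr7 without normal gland 2, 3 or 5 (adjusted p up to 0.109 and 0.0597).

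Ccr6, the Ccl20 receptor, had a change of -1.52 ± 0.68 (adjusted p = 0.113), with normal gland 5 at 1.73 and the other glands at -2.71 to -1.50. Without normal gland 5 it was -0.88 (adjusted p = 0.34). Ccr10, the Ccl27 and Ccl28 receptor, changed by -0.60 ± 0.40 (adjusted p = 0.302). Its probe was well above background in 9 carcinomas and only 1 normal gland. Ccr9, which binds Ccl25, had a change of 0.36 ± 0.35 (adjusted p = 0.494), and the Ccr1-like gene Ccr1l1 one of -0.58 ± 0.26 (adjusted p = 0.118). The Ccr1l1 probe was well above background in 10 carcinomas and 3 normal glands. The changes of Ccr10 and Ccr1l1 were smaller than the -0.97 of undetected probes. Ccr3 was well above background in no carcinoma and 1 normal gland, and Ccr4 in 1 of each, so both stayed out of the test.

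Of the CXC, CX3C and XC receptors, 3 of 6 tested were lower, beside 13.2% of all genes tested, with a median change of -1.25. Cxcr1, a neutrophil receptor, ranged from -8.86 to -6.02 in carcinomas (median -6.97) and from -7.22 to -3.70 in normal glands (median -5.15). The 2 groups overlapped, and the probe was well above background in 5 carcinomas and 3 normal glands only. The change was -2.09 ± 0.53 (adjusted p = 0.00791), and -1.17 with normexp. Cxcr4, the Cxcl12 receptor, was bright enough to be well above background on all arrays and changed by -1.09 ± 0.26 (adjusted p = 0.00618), the smallest call in an always-detected gene of the group. The Cxcr4 call held without any single array. It was lost within slide 1, within slide 2, among samples numbered 1 to 6 and with array brightness as a covariate. Slide 3 held a single normal gland, so the call cannot be judged there. Over the alternatives the change of Cxcr4 ran from -1.33 to -0.12. Cxcr6, the Cxcl16 receptor of T and NK cells, changed by -1.65 ± 0.53 (adjusted p = 0.0298), a call lost without normal gland 2, 3 or 5.

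Cxcr2, the receptor of Cxcl1 and Cxcl2 on neutrophils, had a change of -1.42 ± 0.57 that did not pass (adjusted p = 0.0783). It passed without carcinoma 13 (-1.66, adjusted p = 0.0186) or carcinoma 2 (-1.58, adjusted p = 0.0415). It also passed with slide as a block (-1.72, adjusted p = 0.0179), code series as a block (-1.49, adjusted p = 0.0464) and normexp (adjusted p = 0.00812). Within slides 1, 2 and 3 the change was -1.43, -1.96 and -1.91, and none of the 3 passed. Cxcr3 had a change of -0.70 ± 0.47 (adjusted p = 0.296) and Cx3cr1, the fractalkine receptor of monocytes, one of -0.47 ± 0.51 (adjusted p = 0.543). Cxcr5, the Cxcl13 receptor of B cells, was well above background in no carcinoma and 1 normal gland. Xcr1, whose 2 probes were not well above background on any array, could not be tested either.

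The spread among carcinomas was large for most of these genes. The SD over 13 carcinomas was above the 75th percentile of all genes tested for 31 of the 45, and above the 90th for 21. The median percentile was 85.6, and the median SD was 1.15 against 0.60 over all genes. The largest SDs were 3.12 for Ccl20, 2.80 for Cxcl2, 2.77 for Cxcl13, 2.67 for Ccl11, 2.53 for Cxcl1 and 2.18 for Ccl28. In the 6 normal glands the same genes had SDs of 1.18, 1.86, 1.12, 0.60, 0.81 and 0.54. The Ccl20 probe was well above background in 5 of 13 carcinomas and that of Ccl11 in 10. The median level of undetected probes itself ran from -8.82 to -6.65 over carcinoma arrays, and its part in these SDs was not tested. The carcinoma SD exceeded that of the normal glands in 31 of 45 genes (68.9%), a share near the 61.6% of all genes tested. Ccl19 was the clearest opposite case, with an SD of 0.97 in carcinomas and 2.35 in normal glands.

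**Figure D4:**
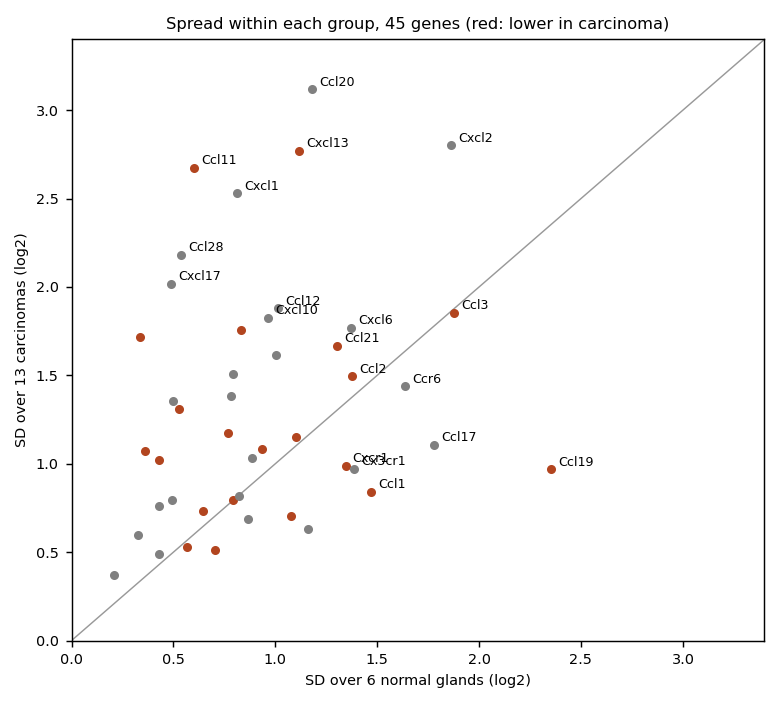
SD of the scaled log2 level over 13 carcinomas (vertical axis) against the SD over 6 normal glands (horizontal axis) for 45 genes; the line marks equal SDs, and red points were lower in carcinoma. Ccl20, Cxcl2, Cxcl13, Ccl11 and Cxcl1 lie at the top, and Ccl19 is the point farthest to the right.

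Single carcinomas carried different ligands. Carcinoma 13 had the highest level of all carcinomas in 12 of the 45 genes, among them Cxcl1, Cxcl2, Cxcl6, Ccl20, Ccl3 and Cxcr2. Carcinomas 2 and 8 were highest in 7 genes each. Over all genes tested, how often each carcinoma was highest or lowest was not counted. The counts in this paragraph are therefore not read as particular to chemokines. Carcinoma 11 was lowest in 15 genes, among them Ccl21, Ccl19, Cxcl13, Ccl11 and Ccr1. Its array was the brightest of all 19 and had the lowest level of undetected probes (-8.82). The values of Ccl11 (-8.75) and Ccr1 (-8.90) in carcinoma 11 lay at that level. Carcinoma 11 was also lowest for Ccl6 (-2.26), which was well above background on all arrays. The part of the scaling in these low ranks was not tested. The macrophage score was lowest in carcinoma 11 as well (-1.90), and the neutrophil score was highest in carcinoma 13 (2.29), above the glands at 0.40 to 1.58. The neutrophil list includes Cxcr1 and Cxcr2, and 3 of its 9 tested genes, Cxcr1, Retnlg and Trem1, were lower in carcinoma.

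Ligands and their receptors were set against each other over the 13 carcinomas in 16 pairs in which both genes passed the filter. Of these, 2 passed an adjusted p of 0.05 (permutation test of Pearson's r, 2-sided, Benjamini-Hochberg over the 16), and 4 had an unadjusted p under 0.05. Cxcl1 and Cxcr2 correlated with r = 0.912 (permutation p = 2e-05, adjusted p = 0.00032) and rho = 0.802 (permutation p = 0.00175, adjusted p = 0.014). Cxcl2 and Cxcr2 correlated with r = 0.889 (permutation p = 0.0001, adjusted p = 0.0008) and rho = 0.819 (permutation p = 0.00091, adjusted p = 0.014). The Cxcr2 probe was well above background in 10 of the 13 carcinomas. Both relations leaned on carcinomas 2 and 13, the farthest from the ligand's median. Without them r was 0.742 for Cxcl1 (permutation p = 0.00838, adjusted p = 0.067) and 0.677 for Cxcl2 (permutation p = 0.0245, adjusted p = 0.0978), so neither passed the adjusted threshold.

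Both pairs also had high values within a scan day and within a series of sample codes. Carcinomas 2 and 13 were both scanned on the second day, so that subset cannot show how far the relations depend on them. The number-coded subset leaves out all letter-coded carcinomas, 13 among them, but holds carcinoma 2. It cannot show how far the relations depend on carcinoma 2. Over the 9 carcinomas of the second scan day, r was 0.945 for Cxcl1 with Cxcr2 (exact permutation p = 3.58e-05) and 0.93 for Cxcl2 with Cxcr2 (exact permutation p = 0.000438). The first scan day held 4 carcinomas, too few for a value. Over the 10 carcinomas whose labels carry a number code and not a letter code, r was 0.857 (permutation p = 0.00096) and 0.853 (permutation p = 0.0013). The correlation with array brightness was 0.09 for Cxcl1, 0.19 for Cxcl2 and 0.12 for Cxcr2. The neutrophil score, which includes Cxcr2 itself, was highest in carcinoma 13 (2.29), followed by carcinomas 10 (1.15), 8 (0.82) and 2 (0.78), and its part was not tested.

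Ccl20 and Ccr6 correlated with r = 0.667 (permutation p = 0.0126, adjusted p = 0.0671) and rho = 0.714 (permutation p = 0.00768, adjusted p = 0.041). With Ccl20 well above background in 5 of the 13 carcinomas, most of its values in this pair are near background. With normexp background correction r was 0.407 (permutation p = 0.162, adjusted p = 0.519). Without carcinomas 2 and 13, which had the most Ccl20 but not the most Ccr6, r was 0.885, over carcinomas most of which had no detected Ccl20, and no relation is read from that value. Over the 9 carcinomas of the second scan day r was 0.596 (exact permutation p = 0.0936), and over the 10 number-coded ones 0.631 (permutation p = 0.0464). Ccl3 and Ccr1 correlated with r = 0.636 (permutation p = 0.0195, adjusted p = 0.0782) and rho = 0.643 (permutation p = 0.0211, adjusted p = 0.0845). The Ccr1 probe was well above background in 6 of the 13 carcinomas. For Ccl3 with Ccr1, r was 0.791 with quantile scaling (permutation p = 0.0014, adjusted p = 0.00747) and 0.376 with normexp (permutation p = 0.204, adjusted p = 0.545). Pairs of the lymphoid ligands did not pass on the main scale: r was 0.354 for Ccl19 with Ccr7, 0.411 for Ccl21 with Ccr7 and 0.33 for Cxcl12 with Cxcr4 (permutation p = 0.236, 0.163 and 0.27, each adjusted p at or above 0.434). Ccl19 with Ccr7 depended on the processing, with r = 0.757 under normexp (permutation p = 0.00319, adjusted p = 0.017), 0.56 under quantile scaling (permutation p = 0.0475, adjusted p = 0.152) and -0.0053 without carcinomas 1 and 11.

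**Figure D5:**
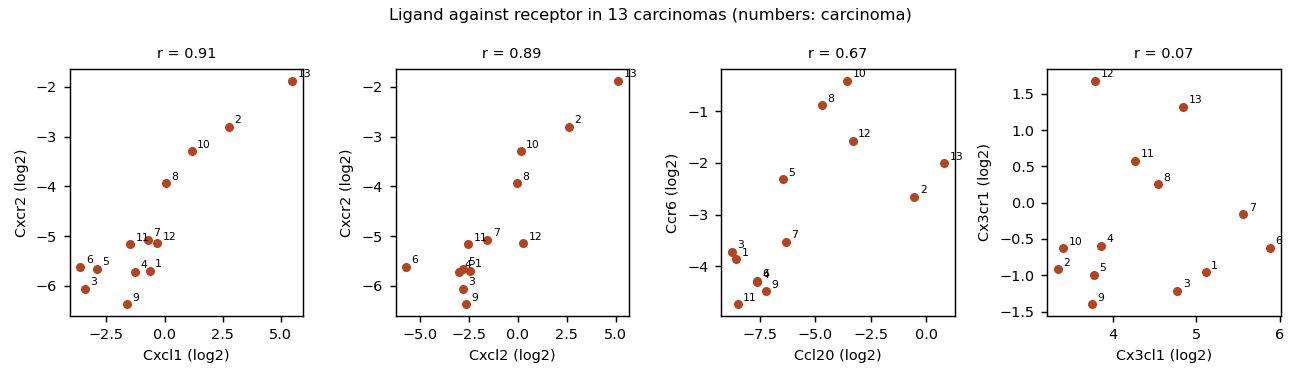
Scaled log2 level of a receptor (vertical axis) against that of its ligand (horizontal axis) in 13 carcinomas, each point labelled with the carcinoma's number; the value above each panel is Pearson's r. Carcinomas 2 and 13 lie at the upper right for Cxcl1 and Cxcl2 with Cxcr2, while for Ccl20 with Ccr6 they lie at the right and below the trend of the others, and Cx3cl1 with Cx3cr1 (r = 0.07) shows no trend.

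Genes that stand next to each other did not all move alike. In the order of coding genes on the GRCr8 build, Ccl2, Ccl7, Ccl11, Ccl12 and Ccl1 are direct neighbours on chromosome 10. Their changes were -2.02, -1.89, -3.10, 1.09 and -2.73, so Ccl12, which was not called, lay between genes that fell. Ccl5, Ccl9, Ccl6, Ccl3 and Ccl4 form a second run on that chromosome with changes of -2.33, -3.46, -2.58, -2.53 and -1.10, and the first 4 were called. On chromosome 5, Ccl27 (-0.13) neighbours Ccl19 (-5.79), with Ccl21 (-6.19) after 1 further gene. On chromosome 19, Cx3cl1 (0.54) lies between Ccl17 (-1.42) and Ccl22 (-1.82). Close copies of a gene can share signal on a probe, which was not tested.

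Other genes of the pathway were counted in the same fit. All 4 atypical receptors tested were lower, beside 13.2% of all genes tested, with a median change of -1.89. Their list score was -1.34 to -0.03 in carcinomas against 0.63 to 2.46 in normal glands. The largest falls were -2.93 ± 0.56 for Ackr3, a scavenger of Cxcl12 (adjusted p = 0.00112), -2.36 ± 0.44 for Ackr2, a scavenger of inflammatory CC ligands (adjusted p = 0.000921), and -1.42 ± 0.36 for Ccrl2, which presents chemerin (adjusted p = 0.00895). The Ackr2 probe was well above background in only 6 carcinomas and 5 normal glands. Endothelial markers, cells in which atypical receptors are found, ran from -1.22 to 0.05 in carcinomas and from 0.23 to 1.78 in normal glands, and their part was not tested.

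Of 33 genes of receptor signalling, 8 were lower and none higher, beside 13.2% of all genes tested that were lower, with a median of -0.23. Among those that fell were 2 genes of leukocytes, the GTPase Rac2 (-1.42 ± 0.47, adjusted p = 0.034) and the phospholipase Plcb2 (-1.34 ± 0.35, adjusted p = 0.0101). Of 17 cytokines and factors that induce chemokines, only Ltb passed (-1.87 ± 0.46, adjusted p = 0.00677), a share below the 13.2% of all genes tested. Tnf (-1.33 ± 0.60, adjusted p = 0.117) and Il1b (-1.26 ± 0.84, adjusted p = 0.3) did not pass. Among 12 genes of cleavage, presentation and storage, the platelet chemokine Pf4 (-2.46 ± 0.51, adjusted p = 0.00229) and the chemokine-cleaving peptidase Dpp4 (-2.09 ± 0.73, adjusted p = 0.0443) were lower. The median of that list was 0.13, none of its genes was higher past the threshold, and 2 of 12 lower is a share near the 13.2% of all genes tested. The Dpp4 probe was well above background in only 7 carcinomas and 4 normal glands.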

How the data were processed

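Gene expression was measured on 19 single-colour Agilent arrays, 1 per sample. Per the file headers and the submitters' processing notes, spot values come from Agilent Feature Extraction 10.7.3.1, and the deposited scanner files hold each spot's background-subtracted intensity with flags for uneven spots and spots well above background. The authors also deposited a log2 table of the same arrays, which followed the scanner values with a constant shift per array and was used as an alternative. The scaling step of that table was read from the values and is not given in the sources used here.

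Intensities were turned to log2, reduced by each array's 75th percentile, and averaged over the spots of a probe. Flagged spots were missing. Probes were named through RefSeq accessions. Probes were retained where at least 0.5 of their unflagged spots were well above background on 6 arrays or more. The brightest probe stood for a gene. This left 12789 genes, of which 86 lacked some values.

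Groups were compared with limma 3.58.1 in R 4.3.3, 2-sided, by group alone with variances that follow intensity, adjusted over all genes tested. Ligand and receptor pairs used 100000 permutations, with 1e-05 the smallest p possible, or all orders for 9 carcinomas, in NumPy 2.4.6 under Python 3.11.15. A list score is the mean of genes centred on their means. Scripts were tested on simulated data, and the number of arrays limits precision.

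Named genes followed a rule: levels for the 12 largest changes past the threshold and the 6 largest SDs among carcinomas, changes or detection counts for the other members, the 3 largest called changes of a pathway list, and at most 2 of a marker list. Some further values were added after they were seen, and some items are not reported here. The gene group, lists and tests were chosen with earlier results of these data known. Alternatives covered background correction, scaling, filter, probe choice, slide, scan day, sample codes, brightness and single arrays. The array's own genome build differs from GRCr8, which was used for promoters and gene order only.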

Additional observations from a re-analysis of the deposited data

Results flagged for a closer look

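Of the 45 genes, 2 had a normal gland far from the other 5 by Dixon's criterion, which chance meets in about 1 of 20 groups. Ccr6 stood at 1.731 in normal gland 5, against -2.713 to -1.502 in the others. That gland also had the highest B cell, T and NK cell scores and the most Ccl19 and Ccl21. Cxcl11 stood at -2.552 in normal gland 2, against -4.688 to -4.213 in the others. Neither gene was called, with or without that gland (adjusted p = 0.34 for Ccr6 and 0.689 for Cxcl11 without it).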

How the results depend on the processing

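No chemokine or receptor gene was higher past the threshold under any alternative run. The main count of 21 lower genes was 32 with normexp background correction, where 48.1% of all genes were called and the median gene shifted by -0.37. It was 8 within slide 1, 10 within slide 2, 0 within slide 3 (6 at an unadjusted p under 0.05, limma) and 3 with array brightness as a covariate, and brightness partly follows group. Quantile scaling, the deposited table, the mean of probes, scan day as a block and a model without trend each gave 21 genes. Other settings gave 18 to 25. Leaving out single arrays gave 14 (without normal gland 2 or 3) to 26 (without carcinoma 13), and 14 of the 21 calls held without any one array. Of the called genes, signs turned for Xcl1 (0.11 within slide 3) and, with brightness, for Ccr2 (0.13) and Cxcr6 (0.059). Of genes not called, they turned for 10 within slide 3 (Ccl17 at 2.15, the furthest), 4 within slide 2, 1 within slide 1, 4 with brightness, 3 with normexp, 1 with the replicate block, 1 for the same samples without it, 1 with array weights and up to 3 without a single array. Of the 21 falls, 5 were over 1.5 times larger than with normexp: Ccl19, Ccl11, Ccl1, Ccr1 and Cxcr1. The cause was not tested. Correlated pairs numbered 2, both of Cxcr2. Without the 2 carcinomas farthest from the ligand's median neither passed, and 1 other pair did, the largely undetected Ccl20 with Ccr6 (adjusted p = 0.0138). The count was 3 by Spearman's rho (with Ccl20 and Ccr6), 3 with quantile scaling (with Ccl3 and Ccr1) and 3 with normexp (with Ccl19 and Ccr7), each beside the 2 pairs of Cxcr2. Genes above the 75th percentile of SD numbered 31, and 30 and 29 under quantile scaling and normexp. Samples numbered alike in both groups did not deviate together (r = -0.11 to 0.24 over 6 numbers). The replicate block gave 21 lower genes, and the same samples without it, an alternative added after the data were seen, gave 22.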
